A study of Drosophila melanogaster with 2 samples.

Results

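The genes described here are tun, Nepl8, CG33169, Dpm3, CG6073, CG6966, sowah, rno and nudC of Drosophila melanogaster, 9 genes with a start site beside some of the strongest binding peaks of the protein CG18011. They were chosen by the signal of the peak at their start site among the peaks kept after a threshold on agreement between libraries, the irreproducible discovery rate (IDR), so their high signal is a description and was not tested. Their 9 peaks are 0.274% of the 3290 IDR peaks and hold 11.5% of the signal summed over that list. Of 13945 protein-coding genes, 2494 had an IDR summit within 500 bp of a start site, which is 17.9%. Chromatin immunoprecipitation with sequencing was done on whole embryos, 0 to 24 h old and of mixed sex, of a transgenic line that stably expresses CG18011 with GFP at its C terminus, using an antibody against GFP. There is 1 group of 2 biological replicates with 1 library each, and no second genotype, treatment or control library was analysed here. All embryonic tissues and stages are mixed in such a sample, and no tissue marker can be read from peak lists. The files carry no read numbers, and the depth behind a peak is therefore unknown.

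In such an experiment, DNA that is bound by the tagged protein, or held close to it, is recovered and sequenced, and a peak caller marks the places where the reads pile up. The summit is the single base that the caller reports as the point of the peak. A start site is the first base of an annotated transcript, and the stretch around it, the promoter, is where the transcription machinery assembles. CG18011 is a zinc finger protein, a class of proteins of which many bind DNA at short words of sequence.

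The sequences under the summits are shown because 3 short words recur in them. The words were taken from the 320 other IDR peaks within the strongest 10% of the list, here called the other strong peaks. They are those most frequent within 100 bp of a summit relative to windows 1000 bp to either side. The windows at the 9 summits were not used, but a second, weaker summit in the interval of Dpm3 is among the 320. Word 1 is AGCANNNAGCT, word 2 is AGCTTTTG and word 3 is AGCANNCAGC, where N is any base and each was searched on both strands. On the opposite strand they read AGCTNNNTGCT, CAAAAGCT and GCTGNNTGCT. Capitals mark every match of a word, and each sequence is given 5′ to 3′ on the strand of its gene, from the Release 6 genome sequence of RefSeq (dm6). The stretches are chr3L:22863730-22863850 on the plus strand for CG33169, chr3R:13403248-13403368 on the minus strand for Dpm3, chr3R:26188832-26188982 on the minus strand for CG6073, chr3R:15095816-15095936 on the minus strand for CG6966 and chr3L:16808287-16808393 on the plus strand for nudC. Nepl8, at chr2L:16487712-16487832 on the plus strand, has no match and is shown as a contrast.
CG33169: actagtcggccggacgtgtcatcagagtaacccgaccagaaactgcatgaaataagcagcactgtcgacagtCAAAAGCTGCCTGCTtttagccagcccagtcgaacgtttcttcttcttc
Dpm3: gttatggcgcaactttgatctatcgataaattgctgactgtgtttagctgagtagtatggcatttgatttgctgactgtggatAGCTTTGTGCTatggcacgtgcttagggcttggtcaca
CG6073: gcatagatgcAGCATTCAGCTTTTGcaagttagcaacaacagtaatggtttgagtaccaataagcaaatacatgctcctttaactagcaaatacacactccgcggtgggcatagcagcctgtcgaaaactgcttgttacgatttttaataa
CG6966: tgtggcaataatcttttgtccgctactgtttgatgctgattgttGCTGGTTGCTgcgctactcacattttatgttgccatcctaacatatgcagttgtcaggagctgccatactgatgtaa
nudC: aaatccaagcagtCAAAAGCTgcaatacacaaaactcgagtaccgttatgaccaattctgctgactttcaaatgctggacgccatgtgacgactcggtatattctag
Nepl8: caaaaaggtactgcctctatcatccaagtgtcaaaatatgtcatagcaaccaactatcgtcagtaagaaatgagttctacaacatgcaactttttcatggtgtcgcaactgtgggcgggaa
In CG33169 and CG6073 all 3 words overlap in a single run of 15 bases, CAAAAGCTGCCTGCT in the first and AGCATTCAGCTTTTG in the second, which lie on opposite strands relative to their genes.

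The signal of a peak in a library is the authors' own value, from their peak caller. The median over the IDR peaks was 64.6 in replicate 1 and 222.8 in replicate 2, so each library was also divided by its own median, and these relative signals are given as mean ± SD over the 2 libraries. The peak of tun, a gene known from a screen for memory mutants, had a signal of 12455 in replicate 1 and 49752 in replicate 2, a relative signal of 208 ± 21.5 (SD, n = 2). Nepl8, which belongs to the neprilysin-like family of metalloproteases that cut small peptides, had 12149 and 49369, a relative signal of 205 ± 23.6 (SD, n = 2). Of these, tun was the higher in both libraries. Its relative signal was 193 against 188 at Nepl8 in replicate 1, and 223 against 222 in replicate 2. At all 9 genes the relative signal was higher in replicate 2, so the SD includes a shift that the genes share. The SD therefore does not measure how firmly 1 gene stands above another. Dpm3 encodes a subunit of the enzyme that makes dolichol-phosphate mannose, the sugar donor for several kinds of glycosylation. Its peak had 8990 in replicate 1 and 36375 in replicate 2, a relative signal of 151 ± 17.0 (SD, n = 2).

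The peak of sowah, which encodes a protein with ankyrin repeats, had a signal of 6489 in replicate 1 and 25653 in replicate 2, a relative signal of 108 ± 10.3 (SD, n = 2). The peak of rno had 5920 and 24821, or 102 ± 13.9 (SD, n = 2). rno encodes a nuclear protein with a PHD finger that restrains signalling by the epidermal growth factor receptor (EGFR) in the developing eye. The peak of nudC, whose product works with the dynein motor in moving nuclei, had 5901 and 23359, or 98.1 ± 9.50 (SD, n = 2). The order of these 3 genes was the same in both libraries.

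The other 3 genes are known here by their numbers only. CG33169 had a signal of 10602 in replicate 1 and 43881 in replicate 2, a relative signal of 181 ± 23.1 (SD, n = 2). CG6073 had 7707 and 33939, or 136 ± 23.3 (SD, n = 2). CG6966 had 7908 and 31554, or 132 ± 13.5 (SD, n = 2). CG6966 was above CG6073 in replicate 1 and below it in replicate 2, the only exchange of places among the 9 genes between the libraries.

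In the IDR list the signal of the 9 peaks ran from 29064 at nudC to 61999 at tun, which is 104 to 222 times the median IDR peak and spans a factor of 2.13. The choice has no natural edge. The peak at the start site of CG3808, next in rank among peaks at a start site, had a signal of 28861, and the ratio of nudC to it was 1.01. One stronger peak lies at the start site of CG18011 itself, with a signal of 70679, and is not among the 9. Its summit is in the coding sequence of that gene, 50 bp downstream of the start site. The peaks nearest to Cyp6a13, RabGGTa and CG33777 rank 6, 9 and 13, but their summits lie 2283, 991 and 1640 bp from any protein-coding start site. Over all IDR peaks, 59.1% had a summit within 500 bp of such a start site.

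**Figure D1:**
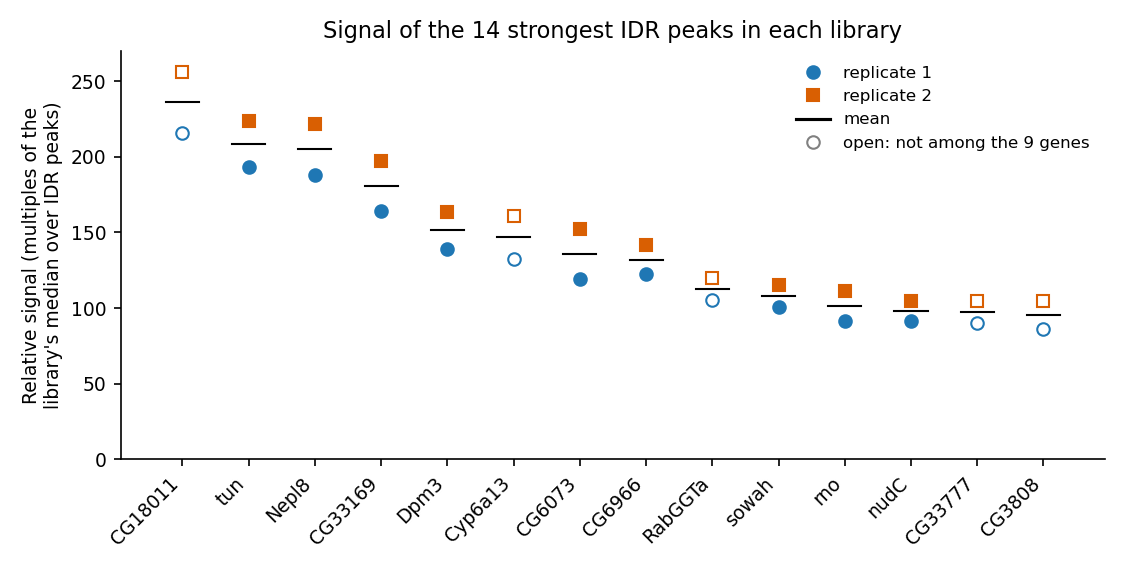
Relative signal (vertical axis, multiples of the library's median over IDR peaks) of the 14 strongest IDR peaks, named by the nearest protein-coding start site, in replicate 1 (circles) and replicate 2 (squares), with the mean as a line; open symbols are peaks not among the 9 genes. The 9 genes run from 98.1 at nudC to 208 at tun, and the open symbols of CG33777 and CG3808 on the right lie as high as nudC.

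The libraries differed in scale and little in order. The signal of replicate 2 was 3.95 to 4.40 times that of replicate 1 at the 9 peaks, against a median of 4.02 at the 320 other strong peaks and 3.74 (quartiles 3.07 and 4.53) over all IDR peaks covered in both. The SD between libraries was 9.59 to 17.2% of the mean. In replicate 1 all 9 peaks ranked 12 or higher, and in replicate 2 so did 8 of them, while nudC ranked 13. The summits of the libraries lay 0 to 18 bp apart, with a median of 3 bp, against 6 bp at the other strong peaks and 26 bp over 3189 other IDR peaks covered in both.

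Each peak was taken with its summit within 500 bp of a start site of the gene, so closeness was set by the choice. Most of the summits lay upstream. The peak of CG33169 (FBgn0053169) spans chr3L:22862931-22865193, and its summit at 22863790 is intergenic, 74 bp upstream of the 1 start site of the gene. The peak of CG6073 (FBgn0039417), chr3R:26188165-26189817, has an intergenic summit at 26188892, 85 bp upstream. The peak of sowah (FBgn0036302), chr3L:12571738-12573554, has an intergenic summit at 12572566, 24 bp upstream and the nearest to a start site among the 9. These 3 summits lie nearer to the start site than the median of 101 bp over 1936 other IDR peaks at a start site. So does that of nudC, described below, at 72 bp.

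Longer distances were found at Dpm3, CG6966 and Nepl8. The peak of Dpm3 (FBgn0053977), chr3R:13401530-13404176, has an intergenic summit at 13403308, 257 bp upstream. The interval is 2647 bp wide and holds a second summit that also passed IDR, at 13402077, with a signal of 4516, or 10.0% of the first. That second summit is intergenic and lies 974 bp downstream of the start site of Dpm3, beyond the other end of the gene. It is nearer to the start site of GILT1, the next gene on that side, and within 500 bp upstream of it. The second summit lies 1231 bp and the GILT1 start site 1446 bp from the first summit. The peak of CG6966 (FBgn0038286), chr3R:15095200-15096425, is the narrowest of the 9 with 1226 bp, and its summit at 15095876 is intergenic, 245 bp upstream. The peak of Nepl8 (FBgn0032585), chr2L:16486807-16488951, has an intergenic summit at 16487772, 376 bp upstream.

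The summits of nudC, rno and tun fall in introns. nudC (FBgn0021768) has 2 start sites, and the summit at 16808347 in chr3L:16807472-16809037 lies 72 bp upstream of the inner one and 3353 bp downstream of the outer one. The summit of rno (FBgn0035106), at 199295 in chr3L:198181-200439, is the only one of the 9 downstream of its start site, by 467 bp. tun (FBgn0034046) has 2 start sites, and the summit at 15848114 lies 465 bp upstream of the inner one and 54114 bp downstream of the outer one. For tun the interval, chr2R:15847052-15848418, ends 161 bp short of the inner start site, so the start site lies under the peak in 8 of the 9 genes and beside it in tun. The start site that does lie under the tun peak is that of CG8249, 752 bp from the summit and on the other strand.

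In all, 8 of 9 summits lay upstream of the nearest start site of the gene, and the median distance was 245 bp. Among 1936 other IDR peaks at a start site 1574, or 81.3%, lay upstream, and among 193 other strong peaks at a start site 161, or 83.4%, with a median distance of 122 bp. The share upstream is thus near the background. Widths ran from 1226 to 2647 bp with a median of 1817 bp, against 608 bp at the other strong peaks and 416 bp over all IDR peaks. Most of the weak pooled peaks near the 9 genes are exactly 416 bp wide with the summit near the middle. That last median therefore need not be a measured breadth of binding. Another 82 IDR peaks were wider than the narrowest of the 9, counting the second summit of Dpm3, which shares the interval of 2647 bp.

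**Figure D2:**
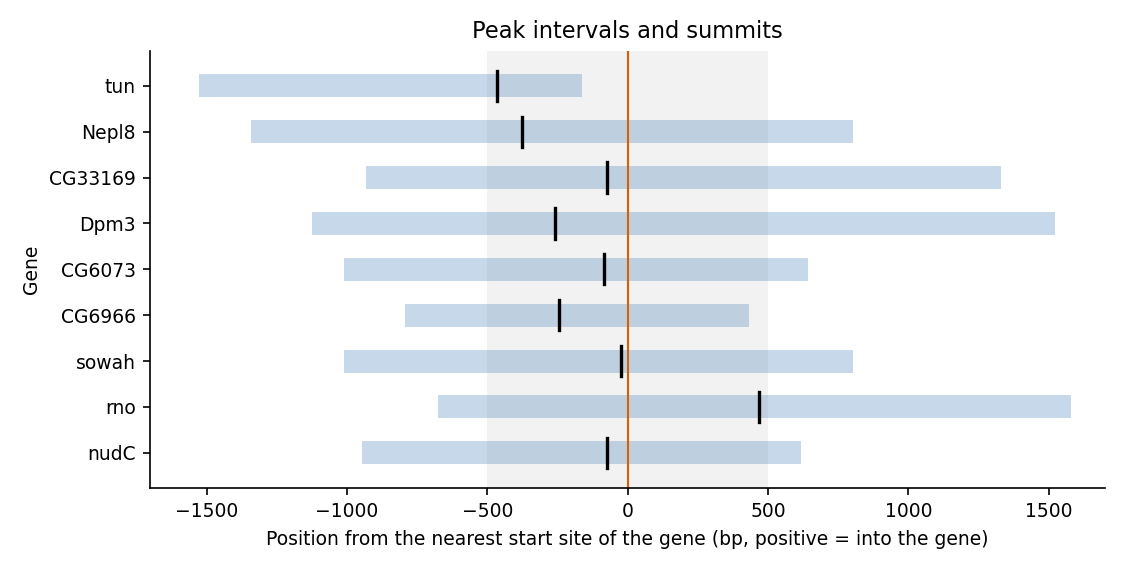
Peak intervals (bars) and IDR summits (black ticks) of the 9 genes on a scale of bp from the nearest start site of the gene (line at 0, positive into the gene), with the 500 bp window shaded. The summit lies to the left of the start site in 8 genes and to the right in rno, and the bar of tun ends before the start site.

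A divergent gene is one with a start site within 1000 bp on the other strand, pointing away. Such a partner was found at 2 of the 9 genes and at 44.6% of the other IDR peaks at a start site, a difference that was not tested. The start site of rno lies 412 bp from that of mri, and that of nudC lies 688 bp from that of CG9674. At tun the gap to CG8249 is 1217 bp. No other gene had a start site within 500 bp of any of the 9 summits. Within the intervals, start sites of 5 other genes were found, 1 each at 5 of the peaks, and they are CG8249, CG33170 in the CG33169 peak, GILT1 in the Dpm3 peak, mri and CG9674.

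The remaining neighbours differ from gene to gene. On one side of Nepl8 is dac, which encodes a nuclear factor of eye and leg development, 1774 bp from the summit, and on the other is Tpr2, at 3768 bp. On the upstream side of sowah is ara, an Iroquois homeobox gene, at 8106 bp, and on the other side CG4069 at 35251 bp. The nearest genes to the Dpm3 summit are yellow-e3 at 115 bp and GILT1 at 1446 bp, and those nearest to the CG6073 summit are CG34130 at 112 bp and CG31323 at 1585 bp. CG42788 ends 81 bp from the CG6966 summit, and CG6974 lies 16591 bp away. CG33169 has CG33170 at 810 bp and CG13239 at 2300 bp. For rno they are mri at 879 bp and Mtch at 12985 bp, for nudC CG9674 at 616 bp and CG13024 at 1311 bp, and for tun CG8249 at 752 bp and cGlr1 at 7847 bp. No annotated transposable element overlaps any of the 9 intervals.

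The surroundings of the 9 peaks, chosen for their height, held only much weaker ones. Within 20 kb of the summits, and outside the intervals, the pooled list held 200 other peaks, 14 at Dpm3 to 28 at rno with a median of 22, against a median of 17 (quartiles 11 and 23) around other IDR peaks. The weakest had a signal of 38.8 and the strongest 1678, and their median was 57.2, against 65.2 over the whole pooled list. Of the 200, 15 passed IDR, or 7.5%, against 11.0% of all pooled peaks and 12.1% of those around other IDR peaks. The flanks lie at 9 loci and are not independent of one another, so these shares were not compared by a test. Each of the 9 peaks held 90.6 to 97.6% of the signal summed over itself and its flanks, and with the second summit in its interval counted as a flank the share at Dpm3 was 88.9%.

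The flanking peaks that passed IDR lay at 6 of the 9 genes, and CG6073, sowah and nudC had none. The strongest was at the start site of Chro, which encodes a chromodomain protein of the chromosome's open interbands, 15111 bp from the CG33169 summit. It had a signal of 435 in the first library and 1246 in the second. Its pooled signal of 1678 was 3.09% of that at CG33169. A second flank of CG33169 lies at EMC4, a subunit of the endoplasmic reticulum membrane complex, with 113 and 476. The peak at Mkp, a MAP kinase phosphatase gene, 14798 bp from the rno summit, had 188 and 855 and a pooled signal of 1030, which at 3.38% was the largest share of the peak it flanks. A second summit in the Mkp interval, at the start site of Mtch, is covered by the same peak of replicate 2, so the 2 are not separate there. The other flank of rno is at Gk1, a glycerol kinase gene, with 113 and 390.

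Nepl8 had 5 flanking IDR peaks. The strongest lies in the coding sequence of Nepl8, 2270 bp from the summit, with a signal of 129 in replicate 1 and 586 in the second library. The other 4 flanks lie at or in Tpr2. Those at 3517 and 3716 bp share a replicate 1 signal of 73.6 and are not separate in that library. tun had 3 flanking IDR peaks, of which 1 is in its own intron with 71.0 and 215. The other 2 are at Gpo1, a glycerol phosphate oxidase gene, 13404 and 13617 bp away. They share a replicate 1 signal of 30.6 and are not separate in that library either. Dpm3 had 1 flanking IDR peak, in an intron of GILT1, which had no peak over its summit in replicate 1 and a signal of 266 in replicate 2. CG6966 had 1, in its own intron, with 52.7 and 166. In the pooled list the peak at the gene was 29.6 to 327 times as strong as these 15 flanks.

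**Figure D3:**
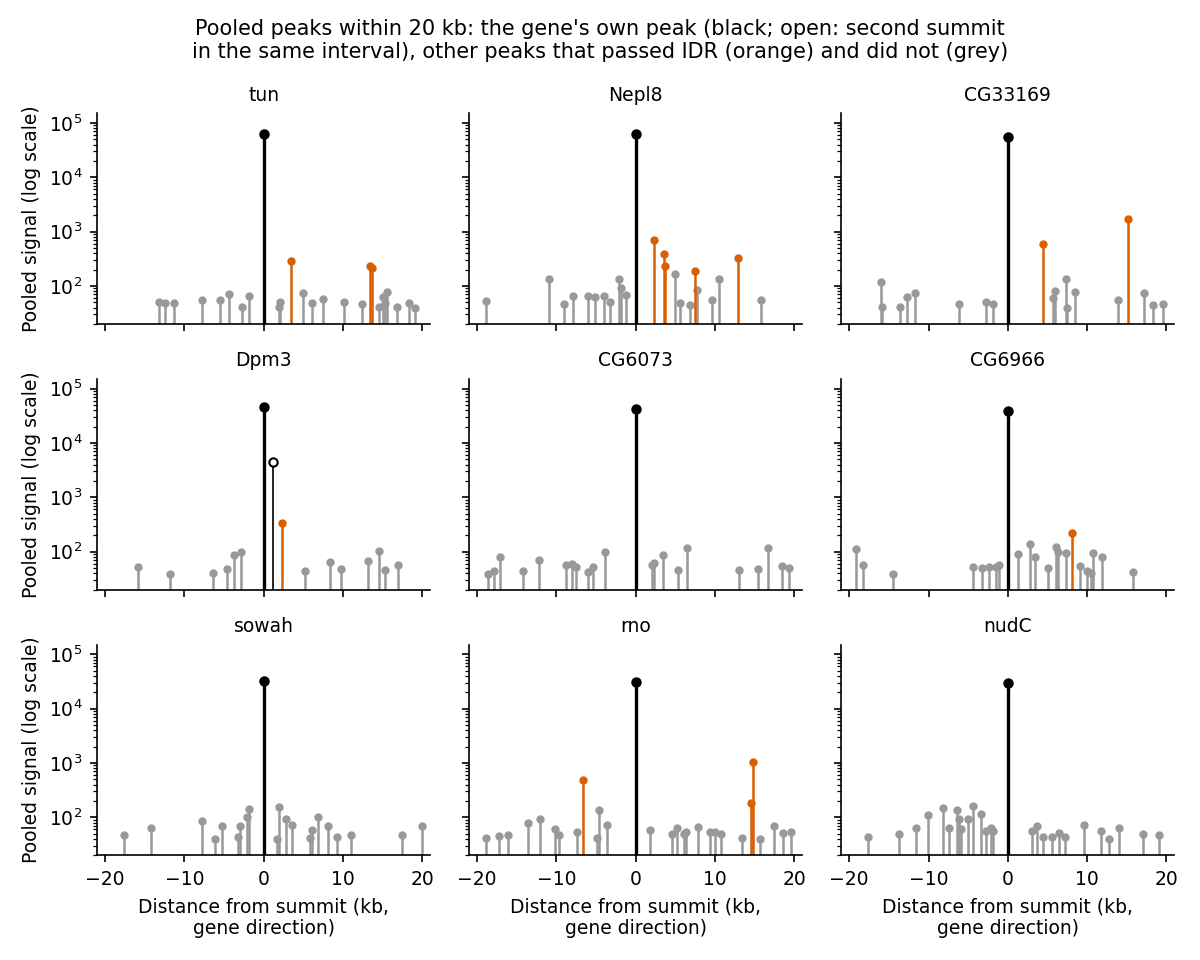
Pooled peaks within 20 kb of each summit, by distance in kb in the direction of the gene (horizontal axis) and pooled signal (vertical axis, log scale), with the gene's own peak in black, a second summit in its interval as an open circle, other peaks that passed IDR in orange and those that did not in grey. The black line is the tallest in every panel, and the panels of CG6073, sowah and nudC hold no orange line.

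Of the 9 windows within 100 bp of a summit, 6 held at least 1 of the 3 words, against 6.98% of the other 3281 IDR windows. Word 1 was found at CG33169, Dpm3 and CG6073 and in 2.71% of the other 3281 IDR windows. Word 2 was found at tun, CG33169, CG6073 and nudC and in 3.69% of the other IDR windows, and word 3 at CG33169, CG6073 and CG6966 and in 2.71%. At the other strong peaks, from which the words were taken, the shares were 16.25% for word 1, 15.6% for word 2 and 14.4% for word 3. The nearest match lay 12 bp from the summit at CG6966, 16 bp at CG33169, 26 bp at tun, 28 bp at Dpm3, 44 bp at nudC and 70 bp at CG6073. The peaks of Nepl8, sowah and rno held no match anywhere, which says only that these letters are not there. In windows 1000 bp to the left and to the right of the 9 summits, 1 and 0 held a word. The words overlap one another in letters. The peaks searched for them are of the same strong part of the list. They include those at CG18011, Cyp6a13 and RabGGTa, which rank above some or all of the 9, and of which only Cyp6a13 held a word.

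Any of the 3 words was present in 98 of the 320 other strong windows, or 30.6%, the set from which the words were taken. Among IDR peaks that played no part in the choice of words, the share was 6.41% at ranks 330 to 1000, 4.30% from there to rank 2000 and 3.49% from there to rank 3290. The windows 1000 bp to the left held a word in 2.38, 2.50 and 3.33% of cases, and those to the right in 2.53, 2.70 and 3.57%. In 25782 weaker pooled windows the share was 3.43%. These are descriptions of the windows, and a match is not shown to be a binding site.

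**Figure D4:**
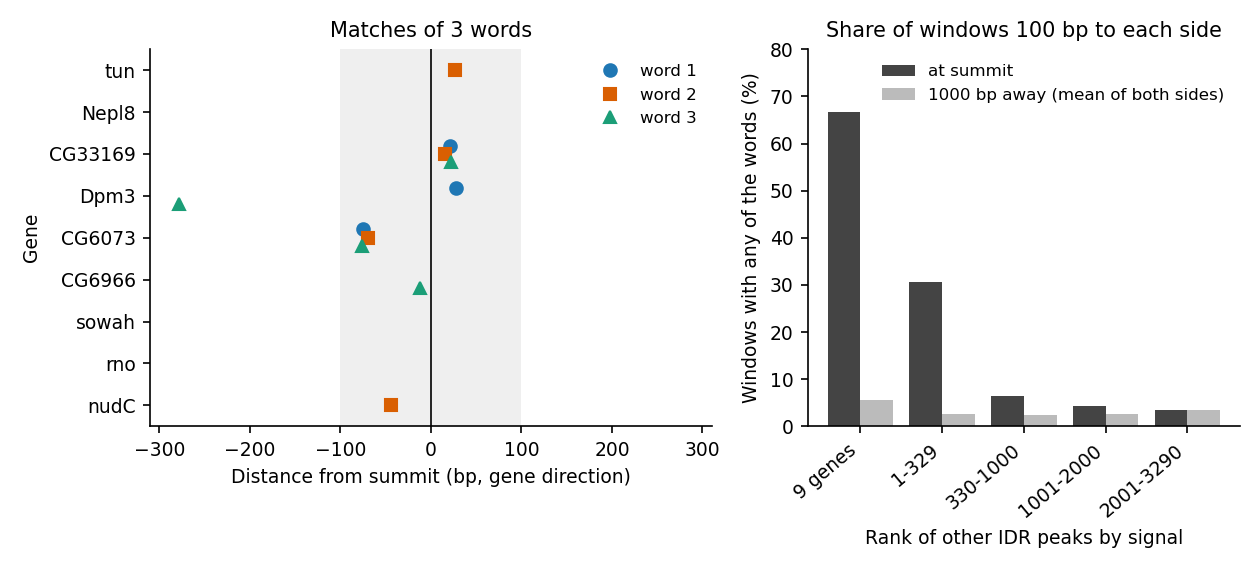
Left, places of the 3 words in the 9 peaks, in bp from the summit in the direction of the gene, with the 100 bp window shaded; a match 686 bp from the nudC summit lies off the scale. Right, share of windows reaching 100 bp to each side with any of the words (%), at the summit and as the mean of the 2 windows 1000 bp away, for the 9 genes and for other IDR peaks by rank. The share is 30.6% at the other strong peaks, first in rank, from which the words were taken. Among peaks that played no part in that choice it falls from 6.41% at ranks 330 to 1000 to 3.49% at the weakest.

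Each of 7 known promoter words was found in 0 to 3 of the 9 windows. The BEAF-32 core CGATA was within 100 bp of the summits of tun, Nepl8 and Dpm3 and in 32.6% of the other IDR windows. The DRE, TATCGATA, which contains that core, was at Dpm3 only (5.18% of the others), as was the core of Motif 1, GGTCACAC (2.86%). The TATA box word TATAAA was at CG6073 only (34.1%). The E-box CAGCTG, the GAGA word GAGAGAG and the Zelda word CAGGTAG were in 0 of the 9 windows and in 11.6, 4.36 and 0.701% of the others. The GC content of the 9 windows ran from 36.8% at nudC to 56.7% at rno with a median of 39.8%, against 36.3% (quartiles 32.3 and 41.8) over the other IDR windows.

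Genes with roles related to those of Nepl8, Dpm3, nudC, rno and sowah were looked up in the same lists. Since the 9 genes were chosen for the highest signals, a weaker peak at these genes follows from the choice, and their values are a description. Whether these genes have an IDR peak at all does not follow from it. Of the 26 neprilysin family genes, Nepl8 was the only one with an IDR peak at a start site. In the dolichol-phosphate mannose pathway 4 of the 9 genes other than Dpm3 had one, Alg3 with a relative signal of 3.73 ± 0.560, PIG-M with 2.24 ± 0.269, PIG-B with 1.30 ± 0.431 and Dpm2, a second subunit of the same synthase, with 0.735 ± 0.0909 (SD, n = 2 each). Among genes of dynein and nuclear migration 5 of 14 other than nudC had one, the highest with a peak in both libraries being klar at 1.18 ± 0.337 (SD, n = 2). In EGFR signalling it was 4 of 17 other than rno, the highest being spi, which encodes an activating ligand, at 2.59 ± 0.0420 (SD, n = 2). Of the rest, aos had no peak over its summit in replicate 1. Ras85D had 0.792 ± 0.279 and drk 0.668 ± 0.233 (SD, n = 2 each), below the median IDR peak. Of 6 other genes with ankyrin repeats, mask had 1.13 ± 0.132 and Patsas 1.10 ± 0.238 (SD, n = 2 each). These lists are small, and their shares were set beside the 17.9% of all protein-coding genes without a test.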

How the data were processed

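Peak lists in narrowPeak format on dm6 and dm3, made by the authors, give for each library, for the pooled libraries and for the peaks that passed IDR a deposited signal per peak and the offset of the summit. How the signal was scaled for depth, which peak caller was used and at what IDR threshold is not stated in those files. Per the deposited text files, alignments and a control went into the lists. Relaxed lists hold at most 30000 peaks, and 1 pooled peak outside the 6 arms was left out.

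The signal of a library at a peak was that of its strongest peak covering the IDR summit. Start sites came from Ensembl release 115 (gene models 6.54), and sequence from RefSeq Release 6. Flanking peaks were pooled peaks with a summit within 20 kb and no overlap with the interval. No test was run, since the members were chosen by their signal and there is 1 group. The word search was tested on simulated data with implanted words.

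The members and lists were chosen with earlier results of these data known, and the words, the shares by rank and the count with the second Dpm3 summit were added after seeing the data. Named genes are the 9 members, genes with a start site within 500 bp of a summit, the nearest protein-coding gene on each side, peaks next in rank, at most 4 bound genes per related list by signal, and CG18011. The genes at flanking peaks that passed IDR, those with a start site inside an interval, and those in the closing section were named after their values were seen. Python 3.11.15, numpy 2.4.6, pandas 2.3.3, scipy 1.17.1 and matplotlib 3.10.9 were used.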

Additional observations from a re-analysis of the deposited data

How the results depend on the processing

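The median relative signal of the 9 genes was 135.8. Scaled to each library's median over the strongest 10% of the IDR peaks it was 16.4, and scaled to the median of each library's own relaxed list 535, both by construction of the scale. With 1 library left out it was 122 to 152, and on dm3 132.9. The order of the 9 genes held in 7 to 9 places with 1 library left out, and 9 of 9 summits stayed within 500 bp of a start site. Flanking peaks numbered 200 within 20 kb, 119 within 10 kb, 451 within 50 kb, and 158 to 210 with 1 library left out. Divergent genes numbered 2 within 1000 bp, 1 within 500 bp and 3 within 2000 bp. Genes with a start site at a summit numbered 9 within 500 bp, 5 within 250 bp and 13 within 1000 bp. Windows with a word numbered 6 at 100 bp and 5 at 50 bp. The interval of rno was 1599 bp wide on dm3 and 2259 bp on dm6, and the cause was not tested. No comparison of conditions, paired or not, was possible because both libraries form 1 group. With 2 libraries of unknown depth, small differences between neighbours in the order were not tested.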

Other observations

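Among the 20 strongest IDR peaks, 11 are not at the 9 genes, and 5 of these 11 held at least 1 of the 3 words within 100 bp of the summit. They are the peaks nearest to Cyp6a13 (word 1), CG33777 (word 2), CG9175 (words 1 and 3), Plc21C (word 2) and mtgo (word 2). The summits of the first pair lie 2283 and 1640 bp from a start site, so the words were also present at strong peaks away from start sites. The strongest peak of all, at CG18011 itself, held none, and neither did those at RabGGTa, CG3808, TER94, CG8204 and RFeSP. All 5 belong to the set from which the words were taken, so their matches are a description.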
